A study of Arabidopsis thaliana with 53 samples.

Results

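Open chromatin of untreated seedling root was set against that of untreated guard cells in Arabidopsis thaliana, using the deposited list of accessible regions (peaks) of each. A peak of one list that shared no base with any peak of the other is called root-only or guard-cell-only here, and the remaining peaks are called shared. Of 25753 root peaks, 9606 (37.3%) were root-only, and of 20954 guard cell peaks, 5082 (24.3%) were guard-cell-only. The series holds 353370 peaks in 18 lists from 53 samples. Each of the compared groups has 3 samples of wild-type (WT) Col-0 plants, labelled control with a treatment time of 4 h, which the protocols describe as an ethanol vehicle. Root nuclei came from seedlings grown on agar plates and the guard cell nuclei, per the protocols on mature plants, from rosettes of plants grown in soil. In both groups nuclei that carried a fluorescent histone (H2B-EGFP) were sorted by flow cytometry, and the promoter that drove the marker is not given in the sources used here. Organ, cell type, plant age and growth medium therefore differ together between the groups and cannot be told apart.

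In ATAC-seq the transposase Tn5 inserts adapters into DNA that is not covered by nucleosomes, so peaks mark promoters, enhancers and other sites open to proteins. Guard cells are the paired epidermal cells that open and close the stomatal pore by moving potassium, chloride and malate across their membranes, and unlike most epidermal cells they hold chloroplasts. Their fate depends on the factors SPCH, MUTE and FAMA, which act in turn with the partners ICE1 and SCRM2, and their outer wall is sealed by a cuticle of wax and cutin. A root takes up ions through hairs and other epidermal cells, and its endodermis is sealed by the lignin band called the Casparian strip and later by suberin. A root sample mixes many cell types, whereas the guard cell sample is aimed at a single one.

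There is 1 pooled list per group and no value per sample, so replicates could not be compared and no test across samples was made. Each interval given is an exact 95% interval by the Clopper-Pearson method. It covers counting error alone, as if every peak were independent. The depth of the libraries is unknown. The strength of a peak is its −log10 p as deposited by the authors, not corrected for multiple tests, and is read as a rank within its own list, where 1 is the strongest. A site open in fewer nuclei and a site less open in every nucleus cannot be told apart in such lists.

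The labels were checked against marker genes, counting a peak whose summit lay inside the gene or within 1500 bp of it. Of 10 guard cell markers, 6 had a peak in the root list and all 10 had one in the guard cell list, and 9 had a guard-cell-only peak, MYB60 being the exception. Of 11 root markers, 8 had a peak in the root list and 8 in the guard cell list, 4 had a root-only peak and 3 a guard-cell-only peak, so the presence of a peak at these genes did not separate the lists. The root cap factor SMB and the stem cell factor PLT1 had no peak in either list. Of 7 markers of mesophyll and other green cells, 5 had a peak in the root list, 6 in the guard cell list and all 7 in the mesophyll control list. Of 6 leaf vein and trichome markers, 4 had a peak in the root list and 3 in the guard cell list, and none had a guard-cell-only peak.

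The one-sided peaks were the weaker and narrower part of each list. Root-only peaks had a median −log10 p of 6.09 and a median width of 353 bp, against 9.61 and 416 bp for shared root peaks. Guard-cell-only peaks had medians of 6.47 and 296 bp, against 10.9 and 411 bp for shared guard cell peaks. In 10 equal parts by rank, the root-only share grew from 6.68% of the strongest root peaks to 72.6% of the weakest, and the guard-cell-only share from 6.68% to 55.2%. Of the 1000 strongest peaks of each list, 35 were root-only and 65 guard-cell-only. Among the strongest 1000 peaks there were thus fewer root-only than guard-cell-only peaks, in the first part of 10 the shares were equal, and in every later part the root share was higher. The order of the shares turned when peaks with a −log10 p under 10 were left out of both lists, with 31.2% root-only and 38.2% guard-cell-only. There a peak also counted as one-sided if its counterpart lay under 10. Of 8925 root and 10000 guard cell peaks of at least 10, 1357 and 999 shared no base with the whole other list. Against whole lists the root share thus stayed higher. With both lists held to equal length, the shares were 30.4% and 30.5%, with peaks whose counterpart was cut off counted as one-sided too. How much of the 37.3% and 24.3% stems from the length of the lists was not tested.

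**Figure D1:**
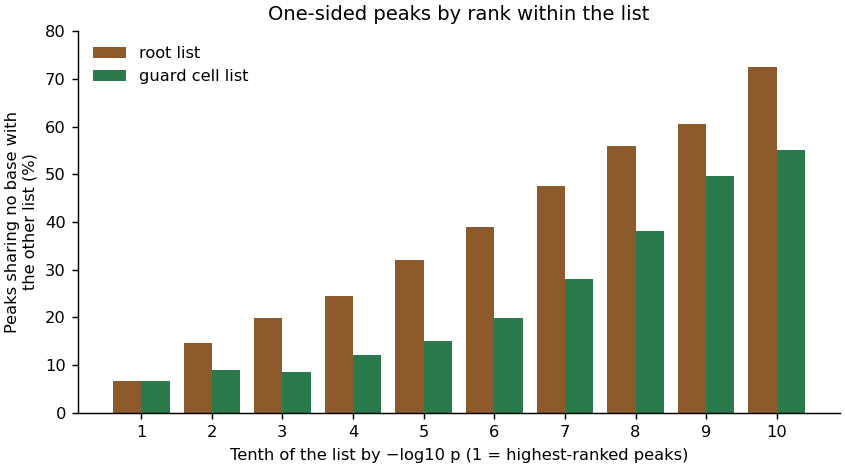
Share of peaks that share no base with the other list (vertical axis, %), in 10 equal parts of each list ordered by −log10 p (horizontal axis, 1 = strongest). Brown bars are the root list and green bars the guard cell list; both start at 6.68% and end at 72.6% in root and 55.2% in guard cell.

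Few peaks stood at the edge of the rule. Among shared peaks, 34 of the root list and 19 of the guard cell list had under 50 bases in common with the other list. Among one-sided peaks, 20 root-only and 13 guard-cell-only peaks lay within 50 bases of a peak of the other list. Within 500 bases the other list had a peak beside 21.6% of root-only and 23.4% of guard-cell-only peaks, and the median gap was 1482.5 and 1463 bp.

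The one-sided peaks were then sought in the other 16 lists, which had no part in choosing them. Root-only peaks were found in the 6 other root lists at shares of 46.3% to 85.6%, and in the 6 other guard cell lists at 1.37% to 8.96%. Guard-cell-only peaks were found in the 6 other root lists at shares of 0.571% to 31.2%, and in the 6 other guard cell lists at 53.3% to 80.2%. These lists differ in length from 15345 to 27514 peaks, and a longer list can hold more of any set. The highest share of root-only peaks was in the longest list, of roots treated with the stress hormone abscisic acid (ABA) for 2 h. That list held 16.1% of the guard-cell-only peaks, while the shorter list of roots treated with ABA for 4 h held 31.2% of them (95% interval 29.9% to 32.5%). In the list of roots treated for 45 min the share was 2.64%.

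The closest to a second measurement was the control pair of abf1/2/3/4 plants, which lack 4 related transcription factors of the ABA response. Of the root-only peaks, 50.9% (49.8% to 51.9%) were present in the abf1/2/3/4 root control list and absent from the abf1/2/3/4 guard cell control list, and 0.770% showed the opposite pattern. Of the guard-cell-only peaks, 75.8% (74.6% to 77.0%) were present in the abf1/2/3/4 guard cell list and absent from the abf1/2/3/4 root list, and 0.610% showed the opposite. Among the 5000 strongest peaks of each list the same pattern held for 497 of 516 root-only peaks (96.3%) and 388 of 398 guard-cell-only peaks (97.5%). The strong one-sided peaks thus recurred, nearly all, on the same side in the mutant lists. Of all root-only peaks 47.2% were in neither mutant list, and of all guard-cell-only peaks 21.7%. The abf1/2/3/4 root control list is shorter than the WT one (19277 against 25753 peaks), while the guard cell lists are closer in length (19864 against 20954). With the WT lists at equal length, the mutant list of the same tissue held 69.8% of root-only and 79.7% of guard-cell-only peaks.

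A core of each side recurred throughout. Found in all 6 other root lists and in none of the 6 other guard cell lists were 2481 root-only peaks (25.8%). Found in all 6 other guard cell lists and in none of the 6 other root lists were 1043 guard-cell-only peaks (20.5%). Of these, 1899 root-only and 737 guard-cell-only peaks were absent from both mesophyll lists too. Mesophyll is the photosynthetic tissue inside the leaf. Its control list held 15.5% of all root-only and 23.5% of all guard-cell-only peaks, and the whole seedling control list held 18.9% and 13.9%.

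**Figure D2:**
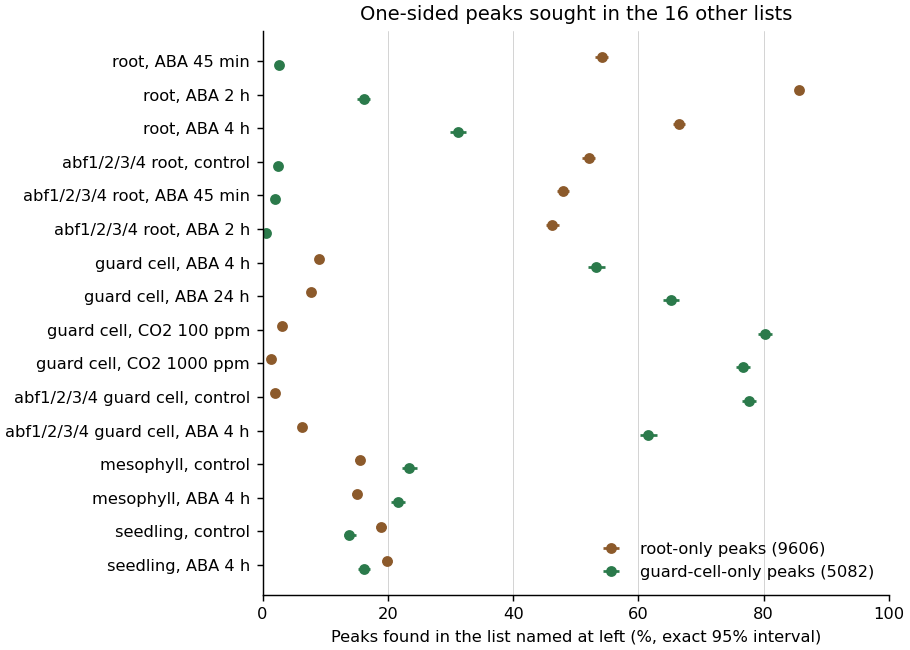
Share of the 9606 root-only (brown) and 5082 guard-cell-only (green) peaks found in each of the 16 other lists (horizontal axis, %, bars are exact 95% intervals and mostly smaller than the points). Root lists, at the top, held 46.3% to 85.6% of root-only peaks, and guard cell lists held 53.3% to 80.2% of guard-cell-only peaks, with root after 4 h of ABA holding 31.2% of guard-cell-only peaks.

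The 12 strongest root-only peaks were named by their nearest gene. The first, at chr1:25015487-25017266 (TAIR10, the build named in the submitters' processing notes), stood at a −log10 p of 29.2, rank 57 of 25753. Its summit was within 1 kb of ZFP6 (AT1G67030), a zinc finger protein known from the start of leaf hairs. The second, chr2:19362199-19363707 with rank 289, had as its nearest gene BOR1 (AT2G47160), the exporter that loads boron into the xylem, and its summit lay just beyond the 1500 bp window. The third, chr2:8473212-8474005 with rank 315, was inside TET2, a tetraspanin of the plasma membrane. WRKY65 (rank 322, chr1:10234962-10236616), CYP710A1 (rank 359), which makes the plant sterol stigmasterol, LSH9 (rank 363), of a family of plant nuclear proteins, and HEME1 (rank 380), a uroporphyrinogen decarboxylase of tetrapyrrole synthesis, followed. HIPP25 (rank 396), a putative metal-binding protein, closed the first 12, among which AT2G43500, AT4G25400, AT5G45840 and AT5G45500 stood as well. Each of the 12 was found in all 6 other root lists, beside 34.0% of all root-only peaks. Each was also in the seedling control list, beside 18.9%. The 12 were picked by strength, and among the 5000 strongest root peaks 100% of root-only peaks were in the abf1/2/3/4 root control list. In the 6 other guard cell lists 7 of the 12 had no peak, beside 84.0% of all root-only peaks, and HIPP25 had one in 3.

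The 12 strongest guard-cell-only peaks were named likewise. The first lay nearest to AT1G44760, at chr1:16899672-16901589, at a −log10 p of 29.3, rank 42 of 20954, and the second near AT3G51400 (rank 47). BCAT-1 (rank 50, chr1:3283274-3284548) breaks down branched-chain amino acids in mitochondria, FUM2 (rank 123) is the cytosolic fumarase behind the fumarate store of leaves, and LUT1 (rank 136) is a hydroxylase of lutein synthesis. GRP23 (rank 200) encodes a glycine-rich protein. KCS10 (AT2G26250, also FIDDLEHEAD or FDH, rank 205, chr2:11172912-11174488) elongates fatty acids in the epidermis. GLX1 (rank 232) is a glyoxalase, and LTPG1 (rank 252, chr1:9739223-9740828) is a lipid transfer protein that helps to export wax. AT5G46490, AT1G20470 and DCF (rank 295), an acyltransferase of leaf cutin, completed the first 12. Each of these 12, also picked by strength, was found in all 6 other guard cell lists, beside 38.4% of all guard-cell-only peaks. In the 6 other root lists 7 of the 12 had no peak, beside 64.4% of all guard-cell-only peaks, and none had a peak in more than 2.

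Named genes were then read in 16 lists of 282 genes, all of which matched the gene table. The lists were chosen with earlier results of these data known, and neighbouring genes can count the same peak. The shares below are therefore a description. Over all 27444 protein-coding genes, 34.5% had a root-only peak inside the gene or within 1500 bp, 22.6% a guard-cell-only peak and 62.1% a shared peak. In the 5 lists of root functions, 40 of 88 genes (45.5%) had a root-only peak and 19 (21.6%) a guard-cell-only peak. In the 6 lists of guard cell and leaf functions, 40 of 133 genes (30.1%) had a root-only peak and 75 (56.4%) a guard-cell-only peak. When each peak was given to its nearest gene only, the root lists had 42.0% with a root-only peak against 24.9% of all genes, and the guard cell and leaf lists 54.9% with a guard-cell-only peak against 15.4%. At equal length of the lists 14.3% of the guard cell and leaf genes had a root-only peak, beside 23.7% of all genes. The root lists were thus near the background for guard-cell-only peaks and moderately above it for root-only peaks. The guard cell and leaf lists were far above it for guard-cell-only peaks. For root-only peaks they were near it, below it at equal length, and slightly above it with nearest genes only (27.8% beside 24.9%).

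**Figure D3:**
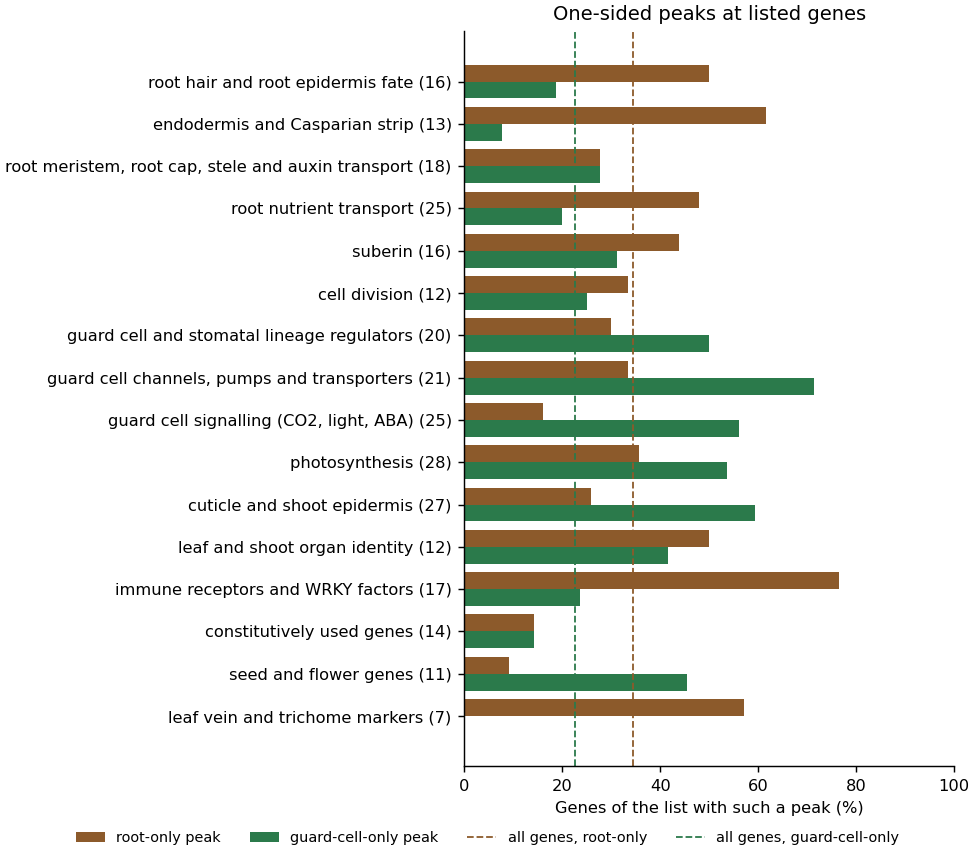
Share of the genes of each list (horizontal axis, %, number of genes in parentheses) with a root-only peak (brown) and a guard-cell-only peak (green) inside the gene or within 1500 bp. Dashed lines are the shares over all protein-coding genes, 34.5% for root-only and 22.6% for guard-cell-only peaks. The endodermis list has 61.5% with a root-only peak and the channel list 71.4% with a guard-cell-only peak; with nearest genes alone the counts are 4 of 13 and 15 of 21.

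Of 16 genes of root hairs and root epidermis fate, 8 (50%) had a root-only peak and 3 (18.75%) a guard-cell-only peak, beside 34.5% and 22.6% of all genes. The 8 include WER, whose weak peak (4.74) lay nearer to the neighbour CA2 and was in none of the 6 other root lists. They also include EXPA18, whose peak (5.70) was in 1 of the 6. RHD6, the factor that starts hair growth, had a root-only peak of −log10 p 12.5 (rank 5357), and RSL4, the factor below it that sets hair length, had 2, the stronger at 7.99. RHD2, the NADPH oxidase of the growing hair tip, had 4 root-only peaks, the strongest at 13.3 and found in 3 of the 6 other guard cell lists. The wall protein gene LRX1 had one at 10.8. At RHD6, RSL4 and LRX1 the strongest root-only peak was found in all 6 other root lists and in no guard cell list. CPC, a small MYB protein that moves into hair cells, had a shared peak that ranked at 83.9% of the pairs in root and 11.5% in guard cell (100% = strongest). On the other side stood MYB23, a fate factor of non-hair cells that also acts in leaf hairs, with 3 guard-cell-only peaks (strongest 11.6), and COW1, a lipid transfer protein of hair growth, with 2 (strongest 7.09). GL2 and TTG1 had shared peaks alone, and RSL1 and RSL2 had no peak in either list.

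Of 13 genes of the endodermis and Casparian strip, 8 (61.5%) had a root-only peak, 1 (7.69%) a guard-cell-only peak and 12 (92.3%) a shared peak. The shares of all genes were 34.5%, 22.6% and 62.1%. When each peak was given to its nearest gene alone, 4 of the 13 had a root-only peak, beside 24.9% of all genes, and at a −log10 p of 10 also 4, beside 12.0%. SHR, which moves from the stele into the endodermis to set its fate, had 3 root-only peaks (strongest 8.66), and GSO1, a receptor kinase needed for an unbroken strip, had one at 10.3. Of the members listed by identifier, AT1G61590 had 3 (strongest 10.1) and AT4G34600 had 2 (strongest 8.52). At SHR, GSO1, AT1G61590, AT4G34600 and ESB1, a dirigent-like protein of lignin placing, the strongest root-only peak was in all 6 other root lists and in none of the guard cell lists, and that at ESB1 was nearer to the neighbour AT2G28671. None of the 13 root-only peaks of the list was in the mesophyll control list, beside 15.5% of all root-only peaks. These peaks were of middling or low strength, the strongest having rank 8462 of 25753. Those at MYB36 (5.24, rank 21553) and CASP2 (5.47, rank 20576) were in 1 and 2 of the 6 other root lists. CASP1 and CASP4, membrane proteins that mark the site of the strip, had shared peaks whose rank changes (root minus guard cell, in percentage points) ran from −9.82 to 26.8 and from −9.64 to 37.6. Over the 16 shared pairs of the list 9 ranked higher in root and 7 in guard cell, with a median change of 4.61 points. SCR, the partner of SHR, had instead a guard-cell-only peak at 9.01.

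Suberin, the waxy wall polymer of older endodermis, divided between the sides. Of 16 genes, 7 (43.75%) had a root-only peak and 5 (31.25%) a guard-cell-only peak, beside 34.5% and 22.6% of all genes. The root-only count was 4 with a window of 500 bp and at equal length, and 2 at a −log10 p of 10. CYP86B1, which oxidises very long fatty chains for suberin, had a root-only peak at 11.5, and MYB41, a factor that can switch on suberin synthesis, had 2 (strongest 7.34). The alcohol-forming reductase FAR5 and the exporter ABCG2 also had root-only peaks that all 6 other root lists held. The elongases KCS2 and KCS20, by contrast, had guard-cell-only peaks at 11.3 and 13.4, and ASFT, the feruloyl transferase of suberin, had 2 (strongest 10.4) and a shared peak whose rank change, root minus guard cell, was −66.9 points. FAR4 and FAR5 are neighbouring, similar genes, so their peaks cannot be assigned with certainty. GPAT5 and CYP86A1 had no peak in either list.

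Of 25 genes of root nutrient transport, 5 (20%) had a guard-cell-only peak, beside 22.6% of all genes, and 12 (48%) a root-only peak, beside 34.5%. FIT (FRU in the gene table), the master factor of iron uptake, had the strongest, at 15.7 (rank 2504 of 25753, found in all 6 other root lists and no guard cell list), and the iron transporter gene IRT1 had 2 weaker ones (strongest 6.10). The ammonium transporter gene AMT1;3 had 6 root-only peaks, the most of any listed gene, with the strongest at 14.0. PHT1;1, which takes up phosphate, had 2 (strongest 13.7). NIP5;1, a boric acid channel, had 4 (strongest 12.8) and a shared peak ranking 57.5 points higher in root. AKT1, the potassium uptake channel, had a shared peak 72.3 points higher in root. HMA4, a zinc pump of the stele, had 2 root-only peaks (strongest 12.7) and a weak guard-cell-only peak (5.68).

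The nutrient list also had members on the guard cell side. SKOR, an outward potassium channel described in the root stele, had 3 guard-cell-only peaks, the strongest at 20.8 with rank 1123 of 20954. The nitrate transporter and sensor NRT1.1, which is also known from guard cells, had a guard-cell-only peak at 6.29 and a shared peak with a change of −73.8 points, higher in guard cell. The phosphate transporter PHT1;4 had a shared peak with a change of −68.2 points. NRT2.1 and NRT2.2, tandem copies of a nitrate transporter, had a shared peak each, 21.0 and 41.1 points higher in root. HAK5, HKT1, SULTR1;1, NRT2.4, HMA2 and, within 1500 bp, BOR1 had no peak in either list.

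Of 18 genes of the root meristem, root cap, stele and auxin transport, 5 had a root-only and 5 a guard-cell-only peak, shares of 27.8% beside backgrounds of 34.5% and 22.6%. At a −log10 p of 10 the counts were 1 and 4. The auxin carriers PIN2, PIN7 and AUX1 had 2, 4 and 2 root-only peaks, the strongest at 7.52, 8.35 and 12.1, and each of these strongest peaks was in all 6 other root lists, while AUX1 also had a shared peak with a change of −34.4 points. The carrier PIN3 had 4 shared peaks, of which the one that changed most did so by −46.3 points, higher in guard cell. Of 6 genes with no peak in either list, PLT1, SMB, FEZ, BRN2 and RGF1 act in the root tip and APL in the phloem. Among 12 cell division genes, 4 had a root-only and 3 a guard-cell-only peak, close to the background.

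On the guard cell side, 6 of 20 regulators of guard cells and the stomatal lineage (30%) had a root-only peak and 10 (50%) a guard-cell-only peak. The shares of all genes were 34.5% and 22.6%. FAMA, which drives the last step of guard cell fate, had a guard-cell-only peak at 14.1 (rank 5172 of 20954) and a shared peak with a rank change of −86.3 points (root minus guard cell). ICE1, its partner, had 2 guard-cell-only peaks, the strongest at 23.5 (rank 496). SCRM2 had one at 16.1 and SCAP1, a factor of guard cell maturation, had 2 (strongest 9.99). These strongest peaks were in all 6 other guard cell lists. MUTE, which acts before FAMA in precursor cells, had instead 2 shared peaks and no one-sided peak, the one that changed most ranking 43.7 points higher in root. MYB61 had no peak in either list.

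Of 21 genes of guard cell channels, pumps and transporters, 7 (33.3%) had a root-only peak and 15 (71.4%) a guard-cell-only peak, beside 34.5% and 22.6% of all genes. ALMT12, the malate channel of stomatal closure, had 2 guard-cell-only peaks, the strongest at 21.2 (rank 1012). ABCB14, a malate importer, had 2 (strongest 19.9), and ALMT6, a malate channel of the vacuole, had 2 (strongest 18.7). The inward potassium channels KAT1 and KAT2 had 2 each, the strongest at 16.9 and 14.8. GORK, the outward potassium channel, had a weak root-only peak at 4.70 and 3 guard-cell-only peaks (strongest 16.8). Its 2 shared peaks ranked 11.5 and 39.6 points higher in root. Between the abf1/2/3/4 control lists the second of these changed by −9.07 points, the opposite direction. At the anion channel SLAC1 there were 3 guard-cell-only peaks (strongest 15.2, its summit nearer to the neighbour AT1G12490). The proton pump gene AHA5 had 2 (strongest 15.9) and a weak root-only peak at 4.22.

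The strongest root-only peak of that list had rank 18361 of 25753, in the lower part of the root list. Of the 26 guard-cell-only peaks, 17 were in all 6 other guard cell lists, beside 38.4% of all guard-cell-only peaks. Of the 26, 14 were in none of the 6 other root lists, beside 64.4% of all guard-cell-only peaks. Shared peaks at channel genes also ranked higher in guard cell, with a median change of −17.4 points over 25 pairs (root minus guard cell) beside 0.0657 over all pairs. At CHX20, a cation exchanger of guard cells, the change was −77.2 points.

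Of 25 genes of guard cell signalling, 4 (16%) had a root-only peak and 14 (56.0%) a guard-cell-only peak, beside 34.5% and 22.6% of all genes. TGG1, a myrosinase that is abundant in guard cells, had 2 guard-cell-only peaks (strongest 23.5, rank 501), and the ABA-activated kinase OST1 had 2 (strongest 22.9, rank 610). MPK12 and HT1, kinases of the response to CO2, had their strongest at 21.1 and 18.2, and the carbonic anhydrase gene BCA1 at 20.7. BLUS1, a kinase of the blue light response, had 2 (strongest 20.0, its summit nearer to the neighbour AT4G14490). The ABA receptor gene PYL2 had 2 (strongest 17.1), and ABI2, a phosphatase that such receptors inhibit, had 2 (strongest 15.8). Each of these strongest peaks was in all 6 other guard cell lists. In the 6 other root lists the strongest peak at OST1 was found in 4 and that at ABI2 in 3, while those at HT1, MPK12, BCA1, BLUS1, PYL2 and TGG1 were found in none. PHOT2, a blue light receptor, had 3 shared peaks and no one-sided peak, the largest change being −80.9 points, higher in guard cell. The windows of BCA1 and AT3G01490 overlap, so that peaks between them count for both.

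Of 28 photosynthesis genes, 10 (35.7%) had a root-only peak and 15 (53.6%) a guard-cell-only peak, beside 34.5% and 22.6% of all genes. RBCS3B, a small subunit gene of Rubisco, had 2 guard-cell-only peaks (strongest 24.3, rank 377). The antenna protein genes LHCB2.1 and LHCB2.2 had 3 and 2 (strongest 24.1 at both), and PSBS, which dissipates excess light, had 3 (strongest 16.8). Of the 23 guard-cell-only peaks of the list, 22 were also in the mesophyll control list and 14 in the seedling control list, beside 23.5% and 13.9% of all guard-cell-only peaks. The shared peaks pointed the same way, 25 of 30 pairs ranking higher in guard cell with a median change of −21.8 points. The genes RBCS1B, RBCS2B and RBCS3B, CAB1 to CAB3, LHB1B1 and LHB1B2, and LHCB2.1 and LHCB2.2 are neighbouring near-copies, so which copy holds a peak is uncertain. The part that nuclei of other green cells had in these peaks was not tested.

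Of 27 genes of the cuticle and shoot epidermis, 7 (25.9%) had a root-only peak and 16 (59.3%) a guard-cell-only peak, beside 34.5% and 22.6% of all genes. FDH (25.9, rank 205), LTPG1 (25.3, rank 252) and CER6 (24.8, rank 309), the main elongase of leaf wax, had the strongest guard-cell-only peaks of the list. MYB94 and MYB96, factors that switch on wax synthesis, had 2 each (strongest 20.8 and 20.4), and CER3, an enzyme of wax alkanes, had 4 (strongest 16.9). ABCG11, an exporter of cuticle lipids, had 3 (strongest 19.2), and GPAT8, an acyltransferase of cutin, had one at 18.1. PDF2 and ATML1, homeodomain factors of epidermal identity, had 2 and 3 (strongest 17.5 and 11.2). In contrast to photosynthesis, none of the 33 guard-cell-only peaks of this list was in the mesophyll control list. In the seedling control list were 3, beside 13.9% of all guard-cell-only peaks, and in all 6 other guard cell lists 24, beside 38.4%. For comparison, 2 of 13 such peaks at regulators, 5 of 26 at channels and 1 of 27 at signalling genes were in the mesophyll control list, beside 23.5% of all guard-cell-only peaks.

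Members of the cuticle list also had peaks that pointed to root. CYP86A8, an omega-hydroxylase of fatty acids, had 3 shared peaks, whose rank changes (root minus guard cell) ran from −48.8 to 78.7 points. CER1, the alkane-forming partner of CER3, had 2, higher in root by 7.20 and 41.5 points. ATML1 had 2 root-only peaks (strongest 7.26, in all 6 other root lists) and a shared peak 23.4 points higher in root, and PDF2 had a weak root-only peak at 4.79. WSD1, a wax ester synthase, had a root-only peak at 10.6 that all 6 other root lists and 3 of the 6 other guard cell lists held. CYP86A4 and GPAT4 share part of their windows, and peaks there count for both.

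**Figure D4:**
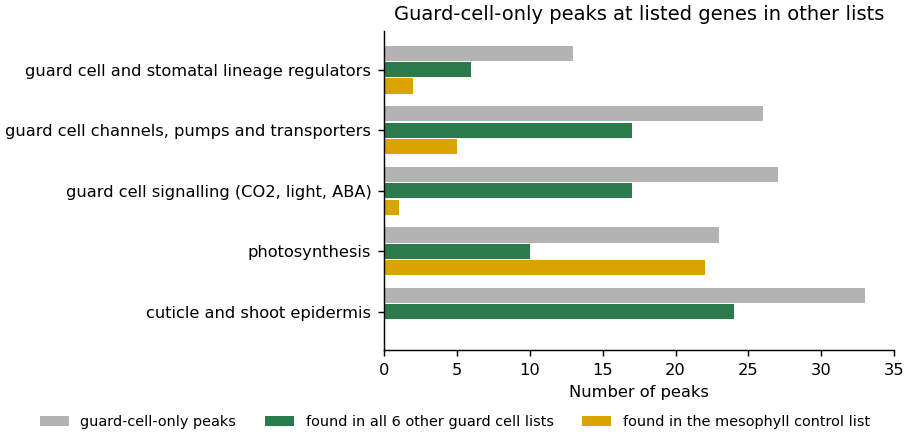
Number of guard-cell-only peaks (grey) at the genes of 5 lists, with the number found in all 6 other guard cell lists (green) and in the mesophyll control list (yellow). Of the peaks at photosynthesis genes, 22 of 23 were in the mesophyll list, and at cuticle genes 0 of 33, beside 23.5% of all guard-cell-only peaks.

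The remaining lists differed in direction. Of 17 immune receptor and WRKY genes, 13 (76.5%) had a root-only peak and 4 (23.5%) a guard-cell-only peak, beside 34.5% and 22.6% of all genes. WRKY29, a factor of immune signalling, had the strongest root-only peak of the list, at 19.6 (rank 840 of 25753), and WRKY70, which acts in salicylic acid responses, had 3 (strongest 13.0). FLS2, the receptor of bacterial flagellin, had a root-only peak at 10.5 and 2 shared peaks that ranked higher in guard cell, with changes of −34.5 and −25.0 points. RBOHD, the NADPH oxidase of the immune burst, had 4 (strongest 12.4, nearer to the neighbour AT5G47920) and a shared peak 83.7 points higher in root. Of 20 root-only peaks of the list, 12 were in all 6 other root lists and 7 in the mesophyll control list, beside 34.0% and 15.5% of all root-only peaks. The shared peaks of the list did not share the direction, with 11 of 24 pairs higher in root and 13 in guard cell and a median change of −4.09 points. The genes with a root-only peak numbered 7 with a window of 500 bp and 5 at a −log10 p of 10, where the shares of all genes were 23.0% and 12.0%.

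Leaf and shoot organ identity genes stood on both sides, with 6 of 12 (50%) having a root-only and 5 (41.7%) a guard-cell-only peak. Over all genes the shares were 34.5% and 22.6%. KAN1 and KNAT1, factors of leaf polarity and the shoot meristem, had root-only peaks at 11.4 and 8.47. AS2, a leaf polarity factor, had 4 guard-cell-only peaks (strongest 8.97), and the growth co-activator AN3 had one at 11.7. Of 11 seed and flower genes, 1 (9.09%) had a root-only and 5 (45.5%) a guard-cell-only peak, the strongest at SEP3 (13.1). Of 7 leaf vein and trichome genes, 4 (57.1%) had a root-only peak and 0 a guard-cell-only peak, and none of the 5 root-only peaks there was stronger than 6.44. Of 14 constitutively used genes, 2 (14.3%) had a root-only and 2 (14.3%) a guard-cell-only peak and all 14 a shared peak. Even there a shared peak could change in rank, as at the actin gene ACT2, where it stood 51.2 points higher in root.

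The sides also differed in place. Summits of root-only peaks lay inside a gene in 45.4%, within 1 kb of a gene end in 33.8% and elsewhere in 20.9%, against 37.5%, 51.0% and 11.6% for shared root peaks. Summits of guard-cell-only peaks were inside in 47.2%, within 1 kb in 38.7% and elsewhere in 14.1%, against 38.7%, 49.8% and 11.5% for shared guard cell peaks. Because one-sided peaks are weak, the shares were repeated among the 5000 strongest peaks of each list. There 20.3% of 516 root-only peaks were inside a gene and 31.4% elsewhere, against 28.03% and 14.3% of shared root peaks. Of 398 guard-cell-only peaks, 40.7% were inside and 19.8% elsewhere, against 33.7% and 12.1% of shared guard cell peaks. Among strong peaks the share inside genes was thus below that of shared peaks on the root side and above it on the guard cell side. The gene table gives neither exons nor strand, so promoters and downstream ends were not told apart.

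Shared peaks were compared by rank. A root peak and a guard cell peak formed a pair if each had its largest overlap with the other, which gave 15227 pairs, and both peaks were ranked among the pairs from 0 to 100 (strongest). The Spearman correlation of the ranks was 0.585, and the median absolute change was 13.7 points, with 39.5% of pairs within 10 points. Pairs 50 or more points higher in root numbered 571 (3.75%), and pairs 50 or more points higher in guard cell 579 (3.8%). Of the pairs higher in root, 390 were also pairs between the abf1/2/3/4 control lists, and 388 of these changed in the same direction there, with a median change of 62.7 points. Of those higher in guard cell, 305 were pairs in abf1/2/3/4 and 304 changed in the same direction, with a median of −62.7. Over all 12364 pairs found in both genotypes, 81.6% changed in the same direction. Nearly all large changes thus kept their direction where the mutant lists held the pair, but 181 and 274 of the pairs were not found there.

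**Figure D5:**
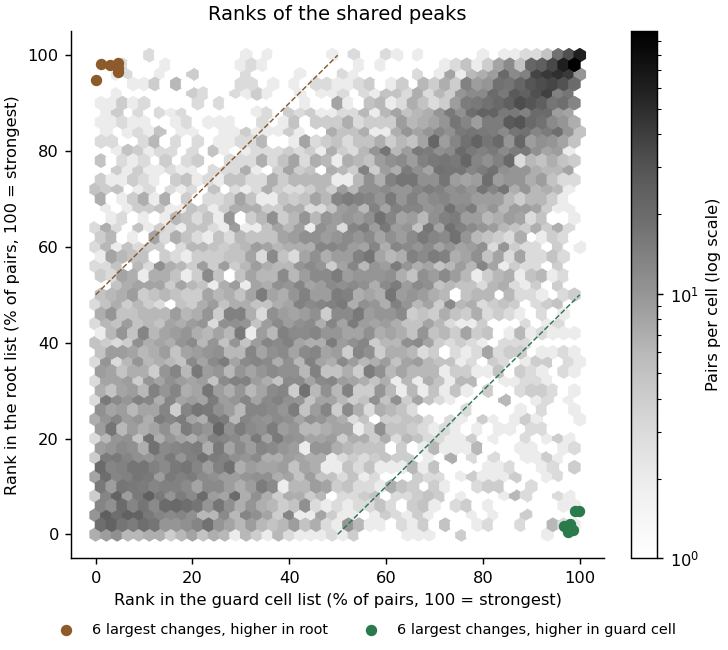
Rank of each of 15227 shared pairs in the root list (vertical axis) and the guard cell list (horizontal axis), from 0 to 100, the strongest; grey shade is the number of pairs per cell on a log scale and the dashed lines mark a change of 50 points. Brown and green points are the 6 largest changes towards root and towards guard cell, in the upper left and lower right corners.

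The 6 pairs that changed most towards root lay nearest to AT4G25410 (97.0 points), AT4G17800 (95.2), AT1G35610 (94.7), AT2G33710 (93.7), AT2G08986 (92.8) and SIP4 (92.0), a kinase also known as CIPK11 that acts on the plasma membrane proton pump. At AT4G25410 the root peak, chr4:12984445-12985193, reached a −log10 p of 22.8 (rank 299 of 25753) and the guard cell peak one of 4.21 (rank 20535 of 20954). The root-only peak of rank 342 lay beside the neighbouring gene AT4G25400. The 6 pairs that changed most towards guard cell lay nearest to CAB1 (−97.8), AT3G24490 (−97.2), ABCG8 (−95.8), AT1G34010 (−95.0), AT3G47295 (−94.8) and BRS1 (−94.1), a carboxypeptidase linked to brassinosteroid signalling. At CAB1, an antenna protein of photosystem II, the root peak reached a −log10 p of 4.26 (rank 25037 of 25753) and the guard cell peak, chr1:10477104-10478141, one of 25.7 (rank 220 of 20954). These 2 peaks had 88 bases in common, so such a pair can join a weak peak to the edge of a strong one. Requiring each summit to lie inside the other peak kept 6 of the 12 pairs, all with the same direction.

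Pairs with large changes also differed in place. Of pairs 50 or more points higher in root, 28.5% had their summit neither inside a gene nor within 1 kb of one, against 15.7% of those higher in guard cell and 10.4% of the other pairs. Summits inside a gene made up 21.2% of the pairs higher in root, 41.3% of those higher in guard cell and 37.9% of the other pairs.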

How the data were processed

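Peak lists in the 10-column narrowPeak layout were used as deposited, 1 per group and none per sample. How the authors combined samples is not given in the sources used here. Genrich and bedtools 2.30 are among the tools in the submitters' processing notes, and the notes name the build TAIR10, without roles or order. The deposited −log10 p of a peak, from the authors' peak caller, set its rank, with ties by the deposited area score (signal summed over the peak). Overlaps, pairs and ranks were computed in Python 3.11.15 (numpy 2.4.6, pandas 2.3.3, scipy 1.17.1), tested on simulated lists, and one-sided counts were checked against bedtools 2.31.1. A peak was shared if it had at least 1 base in common with the other list. Gene names and neighbours came from RefSeq (TAIR10.1); all 282 listed genes matched it, 8 by identifier alone. In the root and guard cell lists, 37.4% and 51.1% of summits were within 150 bp of a gene end, against 13.9% to 14.3% after moving them by 5000 bp. The members and gene lists were chosen with earlier results of these data known. Named are listed genes, the 12 strongest one-sided peaks of each side and the 6 largest rank changes in each direction. The lists hold no column of per-sample values, so samples entered no test.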

Additional observations from a re-analysis of the deposited data

How the results depend on the processing

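The share of root-only and guard-cell-only peaks moved with each choice. It was 31.2% and 38.2% with peaks under a −log10 p of 10 left out, 30.4% and 30.5% with lists of equal length, 44.5% and 31.4% when 50% of the bases had to be shared, 39.3% and 25.9% when the summit had to lie in a peak of the other list, and 10.3% and 7.96% for the first 5000 peaks against the whole other list. Against all 7 lists of the opposite tissue it was 31.3% and 15.6%, and between the abf1/2/3/4 control lists 29.5% and 30.9%, both chosen after seeing the data. The share of root-only peaks found in the abf1/2/3/4 root control list, 52.1%, and of guard-cell-only peaks in the abf1/2/3/4 guard cell control list, 77.7%, became 99.9% and 99.9% at the threshold of 10, 69.8% and 79.7% at equal length, 53.3% and 80.1% with 50% of the bases, and 100% and 100% among the first 5000. At the threshold of 10 and at equal length, peaks whose counterpart was left out count as one-sided too, so the sets of peaks differ. At the threshold they held 2785 root and 3815 guard cell peaks, of which 1357 and 999 shared no base with the whole other list. Large rank changes made up 4.63% of pairs towards root by area score, 3.21% and 3.31% towards root and guard cell with each summit inside the other peak, and 4.42% towards guard cell at the threshold of 10. Peaks near a gene end were 22.5% of root-only and 29.8% of guard-cell-only peaks within 500 bp, and 45.4% and 47.2% within 2000 bp. Genes of the root lists with a root-only peak numbered 23 at the threshold of 10 (26.1%, beside 12.0% of all genes). Genes of the guard cell and leaf lists with a root-only peak numbered 24 with a window of 500 bp (18.05%, beside 23.0%), 12 at the threshold of 10 (9.02%, beside 12.0%) and 19 at equal length (14.3%, beside 23.7%). The shares of all genes fell too, and in these settings those of the listed genes stayed below them. With each peak given to its nearest gene only, the listed genes stood above all genes, with 37 (27.8%, beside 24.9%). The first 5 of these choices only tighten the rule or shorten a list, so the 24 named one-sided peaks could not become shared there. Against all 7 opposite lists, where they could, 14 of the 24 stayed one-sided. The cause of these moves was not tested, except that fewer peaks remain under the threshold and at equal length. No paired analysis was possible because each group is 1 pooled list, and leaving out a replicate was not possible for the same reason. The motif comparison was not run, since no sequence was used here. Depth is unknown, and what it limits could not be measured.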

Other observations

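Gene families were counted in the same way, taken by symbol from the gene table and chosen after seeing the data, so the counts are a description. Glutathione transferases, which detoxify reactive compounds, stood on the root side, with 27 of 43 genes (62.8%) having a root-only peak and 2 (4.65%) a guard-cell-only peak, beside 34.5% and 22.6% of all genes. WRKY factors had 43 of 71 (60.6%) and 10 (14.1%), UDP-glycosyltransferases 38 of 64 (59.4%) and 15 (23.4%), and MYB factors 60 of 125 (48.0%) and 23 (18.4%). Aquaporins, the water channels, had 18 of 35 (51.4%) and 8 (22.9%). The elongases of very long fatty acids (3-ketoacyl-CoA synthases) stood on the guard cell side, with 2 of 21 (9.52%) and 10 (47.6%). Light-harvesting proteins had 8 of 21 (38.1%) and 12 (57.1%). ABC transporters had 39 of 127 (30.7%) on either side, below the share of all genes for root-only and above it for guard-cell-only peaks. Auxin response factors had 4 of 25 (16%) and 6 (24.0%). Families hold tandem copies, so their members are not independent.

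Some genes were the nearest gene of many one-sided peaks, again picked after seeing the values. The highest counts of root-only peaks were at genes known by identifier alone, AT4G06688 (13), AT3G33187 (10), AT4G06744 (9) and AT5G30520 (8). Genes with a symbol and lower counts included MYB68 with 6, a MYB factor, and GAD with 6, the glutamate decarboxylase of roots. The extensin EXT3 had 5, as had each of the neighbours CYP71A16 and MRN1, which oxidise and make the triterpene marneral. On the guard cell side AT1G10650, AT1G75880, AT3G17100, CER3, MYB102 and IDD5 had 5 each. NCED3, the rate-limiting enzyme of ABA synthesis, had 4, as had KAT1.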
